A study of Homo sapiens with 6 samples.

Results

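The messages of 9 enzymes of serine synthesis and of the folate-bound one-carbon pathway were followed in PC-3 cells, an established human prostate cancer line derived from a metastasis in bone. The genes were taken by symbol from the deposited count table, PHGDH, PSAT1, PSPH, SHMT1, SHMT2, MTHFD1, MTHFD2, MTHFD1L and ALDH1L2, and all 9 were found among 30651 listed genes and passed the filter on low counts that left 15423 genes to test. Total RNA was sequenced in 3 libraries of the shMTA1 group (titled MTA1, with column names that carry the prefix sh, the usual one for a short hairpin RNA) and in 3 control libraries (titled Ctrl, with columns named NC). The libraries of both groups are PC-3 cells in DMEM/F12 medium with 10% fetal bovine serum, with no drug treatment or time given, and the labels name lentivirus and stable clone screening without the number of hairpins or clones behind each group. MTA1 belongs to NuRD, a complex that remodels chromatin and removes acetyl groups from histones, and the comparison asks how the level of each enzyme's message differs in cells with less MTA1. The labels do not say that the libraries of a group came from separate cultures, so the p-values cover the spread among these 6 libraries alone, and that spread may be technical.

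Cells make serine from the glycolytic intermediate 3-phosphoglycerate in 3 steps, catalysed by PHGDH, PSAT1 and PSPH. Serine then gives a carbon unit to tetrahydrofolate through a serine hydroxymethyltransferase, SHMT1 in the cytosol or SHMT2 in mitochondria. The folate-bound carbon is oxidised and released as formate in mitochondria (MTHFD2, MTHFD1L) and is handled by the trifunctional MTHFD1 in the cytosol, where it feeds purine and thymidylate synthesis and methionine. Several of these genes are known targets of the stress-induced transcription factor ATF4, and proliferating tumour cells are known for high levels of the mitochondrial branch.

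Library totals ran from 29909172 to 30938820 counts in shMTA1 and from 31726013 to 33849262 in Ctrl, and no pair of libraries of a group agreed within sampling noise. MTA1 itself (ENSG00000182979.18, chromosome 14) was at 17.3, 18.04 and 16.7 CPM in the shMTA1 libraries and at 38.3, 40.6 and 41.1 CPM in the Ctrl libraries (log2 fold change -1.21 ± 0.054 SE, edgeR adjusted p = 4.34e-13), the direction of a knockdown. CPM are counts scaled by TMM-adjusted library size, and log2 fold changes are of shMTA1 over Ctrl. Of the cell line's markers, KRT8 (1541 CPM in shMTA1, 1886 CPM in Ctrl), KRT18 (1267 CPM in shMTA1, 1343 CPM in Ctrl) and VIM (1032 CPM in shMTA1, 779 CPM in Ctrl) were high, while the androgen-regulated KLK3 and TMPRSS2 averaged under 0.1 CPM in both groups. The 7 fibroblast markers summed to 36.2 to 38.2 CPM in shMTA1 and 49.3 to 55.1 CPM in Ctrl. Most of this was COL1A1 (16.4 CPM in shMTA1, 31.6 CPM in Ctrl) and LUM (13.9 CPM in shMTA1, 12.6 CPM in Ctrl). PDGFRA was the lowest (0.107 CPM in shMTA1, 0.0723 CPM in Ctrl). The leukocyte markers, of which 4 of 5 were listed, summed to 0.741 to 0.915 CPM in shMTA1 and 0.841 to 1.16 CPM in Ctrl. Most of this was CD14 (0.655 CPM in shMTA1, 0.814 CPM in Ctrl), with PTPRC at 0.032 CPM in shMTA1 and 0.0425 CPM in Ctrl. Mitochondrially encoded transcripts took 7.10% to 7.77% of counts in shMTA1 and 5.31% to 5.81% in Ctrl. With these and the most abundant genes left out of the fit, log2 fold changes were 0.307 for SHMT2, 0.337 for MTHFD2, 0.265 for ALDH1L2 and 0.0535 for MTHFD1L. With them kept, the values were 0.306, 0.336, 0.264 and 0.0525. Any other link of the mitochondrially encoded transcripts to the nuclear-encoded mitochondrial enzymes was not tested. In bulk RNA, fewer cells that hold a message and less of it per cell cannot be told apart.

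Most of the 9 enzymes differed between the groups, in directions that split by step in serine synthesis and by compartment among the called folate enzymes. The first enzyme of serine synthesis, PHGDH, and both cytosolic folate enzymes, SHMT1 and MTHFD1, were lower in shMTA1, and the later serine synthesis enzymes PSAT1 and PSPH and 3 of the 4 mitochondrial enzymes, SHMT2, MTHFD2 and ALDH1L2, were higher. MTHFD1L, the fourth mitochondrial enzyme, did not pass the test. The split by compartment did not extend to MTHFD2L, a mitochondrial folate enzyme outside the 9, which was lower (log2 fold change -0.26 ± 0.075 SE). In all, 8 of 9 passed at an adjusted p under 0.05 (edgeR quasi-likelihood test, Benjamini-Hochberg over all genes tested), beside 58.1% of all genes tested, 5 of them higher beside a background of 29.5% and 3 lower beside 28.6%. The background leaned to higher calls with scaling by library size only (5376 higher and 3574 lower) and on both FPKM scales. The same 8 had groups that did not overlap, as had 62.7% of all genes tested, 32.1% with the shMTA1 libraries above and 30.6% with them below. The changes were modest. Absolute log2 fold changes of the 9 had a median of 0.34 and reached 0.45, beside a median of 0.29 over all genes tested, and none of the 9 changed 2-fold, whereas 954 genes did.

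**Figure D1:**
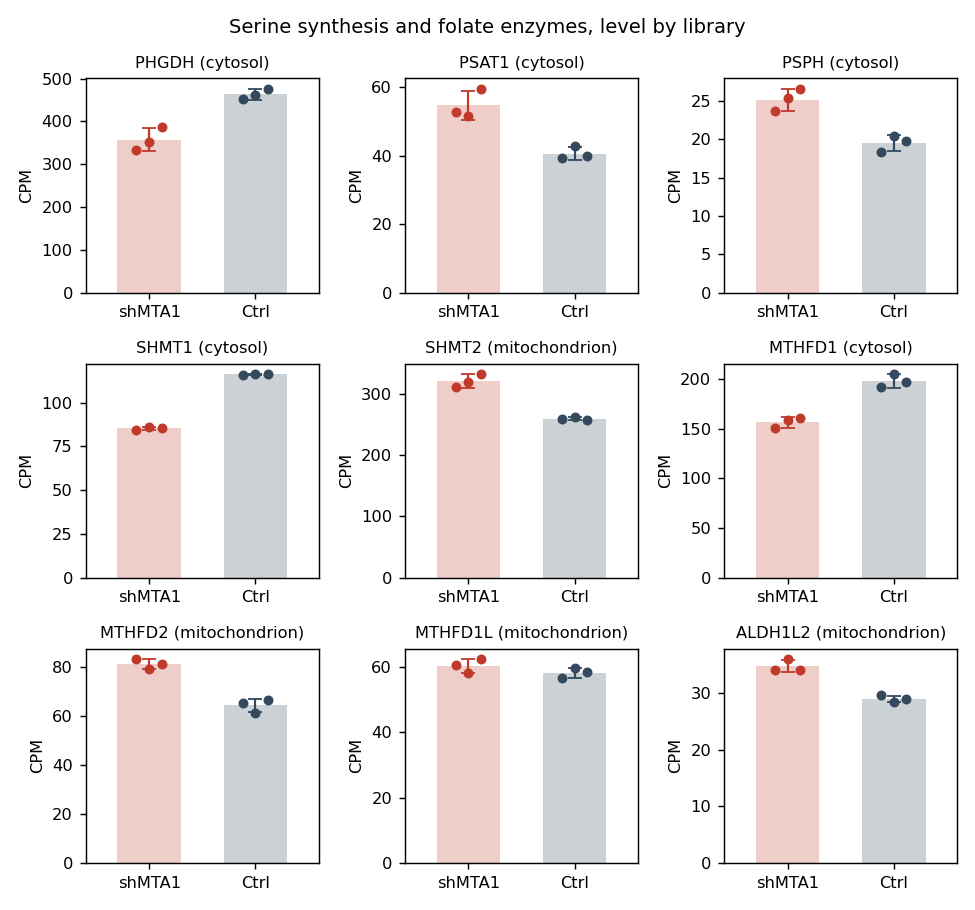
Level of each of the 9 enzyme messages in CPM, by library (points), with the mean (bar) and SD (line) of n = 3 libraries; shMTA1 is on the left of each panel and Ctrl on the right, and the title gives the compartment. The points of the groups overlap for MTHFD1L and for none of the other 8 enzymes.

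Promoter sequence was available for 6 of the 9 genes in a RefSeq table of GRCh38.p14 (PHGDH, PSAT1, SHMT1, MTHFD1, MTHFD2 and MTHFD1L). All 6 held the motif CCAAT, the letters bound by the factor NF-Y, within 250 bases before to 50 after a transcript start, on either strand, beside 43.0% of 10561 tested genes with a promoter in the table and 34.6% of all 35116 promoters. The motif was present in promoters of genes that were lower (PHGDH, SHMT1, MTHFD1), higher (PSAT1, MTHFD2) and not called (MTHFD1L). The 250 bases before the start are shown, 5′ to 3′ on the gene's strand, for PHGDH and PSAT1, the consecutive serine synthesis enzymes that moved apart, and for SHMT1 and MTHFD2, a cytosolic and a mitochondrial enzyme that moved apart, with CCAAT (or its reverse complement ATTGG) in capitals. They lie at chr1:119711684-119711933, plus strand (PHGDH), chr9:78296875-78297124, plus strand (PSAT1), chr17:18363551-18363800, minus strand (SHMT1) and chr2:74198365-74198614, plus strand (MTHFD2).
PHGDH: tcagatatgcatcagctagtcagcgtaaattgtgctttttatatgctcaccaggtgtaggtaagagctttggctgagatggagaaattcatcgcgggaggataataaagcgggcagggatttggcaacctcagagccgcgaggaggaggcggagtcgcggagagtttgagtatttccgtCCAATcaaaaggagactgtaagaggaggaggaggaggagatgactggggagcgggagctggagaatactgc
PSAT1: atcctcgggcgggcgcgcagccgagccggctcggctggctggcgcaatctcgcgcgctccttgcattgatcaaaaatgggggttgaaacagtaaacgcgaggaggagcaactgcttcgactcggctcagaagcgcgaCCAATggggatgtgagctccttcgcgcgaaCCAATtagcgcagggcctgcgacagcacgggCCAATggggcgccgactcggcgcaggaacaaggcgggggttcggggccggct
SHMT1: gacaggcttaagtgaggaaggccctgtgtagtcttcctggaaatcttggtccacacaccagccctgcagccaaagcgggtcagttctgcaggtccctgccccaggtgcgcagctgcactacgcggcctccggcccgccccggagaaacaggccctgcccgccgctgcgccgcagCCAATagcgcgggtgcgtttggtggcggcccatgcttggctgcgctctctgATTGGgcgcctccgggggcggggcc
MTHFD2: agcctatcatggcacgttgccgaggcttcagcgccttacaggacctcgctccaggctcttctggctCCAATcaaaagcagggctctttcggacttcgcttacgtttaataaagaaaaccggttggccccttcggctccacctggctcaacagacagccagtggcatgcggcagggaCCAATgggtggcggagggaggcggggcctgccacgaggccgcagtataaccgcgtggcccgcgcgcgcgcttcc

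CCAAT began 71 bases before the start in PHGDH, 113, 83 and 52 bases before it in PSAT1, and 184 and 74 bases before it in MTHFD2, all on the gene's strand. In SHMT1 it began 76 bases before the start on the gene's strand, and a reverse match began 25 bases before it. For PSPH, SHMT2 and ALDH1L2, which were higher, no sequence could be searched. TGATGNAA is the core of the amino acid response element bound by ATF4 and C/EBP factors. It was found in the window of 1 of the 6 genes, MTHFD1L, beside 2.78% of tested genes. The match is shown in capitals in 30 bases of the plus strand at chr6:150866346-150866375 (GRCh38.p14), 90 or 129 bases before 2 of the gene's 4 listed starts and 24 bases after another.
MTHFD1L: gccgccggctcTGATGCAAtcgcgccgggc

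The palindromic E-box CACGTG, bound by MYC and related factors, was found in MTHFD1 and MTHFD1L, 2 of the 6 genes, beside 12.7% of tested genes. CACGTG reads the same on both strands, and no match shown overlaps a match to another motif. A match describes the letters in the window and is not evidence of binding.

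Serine synthesis genes split at the first step. PHGDH (ENSG00000092621.13, chromosome 1), the dehydrogenase that commits 3-phosphoglycerate to serine, was at 334, 351 and 388 CPM in the shMTA1 libraries and at 451, 461 and 476 CPM in the Ctrl libraries. Every shMTA1 library was below every Ctrl library, with shMTA1 replicate 3 nearest to them. The mean was 358 ± 27.5 CPM in shMTA1 and 463 ± 12.7 CPM in Ctrl (SD, n = 3 each), a fall of 22.8% on the fitted scale (log2 fold change -0.37 ± 0.048 SE, edgeR adjusted p = 1.44e-06). PSAT1 (ENSG00000135069.14, chromosome 9), the aminotransferase of the second step, was at 52.7, 51.6 and 59.5 CPM in shMTA1 and at 39.3, 42.7 and 39.7 CPM in Ctrl. All shMTA1 libraries were above all Ctrl libraries, and shMTA1 replicate 3 was again the highest. The rise was 34.6% (0.43 ± 0.056, adjusted p = 1.88e-06), the largest rise among the 9. PSPH (ENSG00000146733.14, chromosome 7), the phosphatase that releases serine, was at 23.6, 25.4 and 26.5 CPM in shMTA1 and at 18.3, 20.4 and 19.8 CPM in Ctrl. The groups did not overlap here either, and the rise was 28.9% (0.37 ± 0.060, adjusted p = 2.77e-05). The pseudogene PSPHP1, which can share reads with PSPH, was at 1.12 ± 0.205 CPM in shMTA1 and 1.49 ± 0.157 CPM in Ctrl and was not called (-0.42 ± 0.20, adjusted p = 0.0871). PHGDH carries most of the counts of this branch, so the 3 genes together took 0.0418% to 0.0486% of all counts in shMTA1 and 0.0496% to 0.0521% in Ctrl.

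The hydroxymethyltransferases moved in opposite directions by compartment. SHMT1 (ENSG00000176974.20, chromosome 17), the cytosolic enzyme, was at 84.5, 86.1 and 85.5 CPM in shMTA1 and at 116.1, 116.5 and 116.4 CPM in Ctrl. The replicates were tighter than for any of the other 8 genes, with coefficients of variation of 0.955% in shMTA1 and 0.198% in Ctrl, and the groups lay far apart. With 2575 to 2730 counts in shMTA1 and 3586 to 3829 in Ctrl, both coefficients are below counting noise. Such closeness is not a trait of SHMT1. SHMT1 fell by 26.6% (log2 fold change -0.45 ± 0.040 SE, adjusted p = 8.17e-09). SHMT2 (ENSG00000182199.11, chromosome 12), its mitochondrial counterpart, was at 311, 319 and 332 CPM in shMTA1 and at 259, 262 and 257 CPM in Ctrl. All shMTA1 libraries were higher, by 23.6% (0.31 ± 0.039, adjusted p = 1.44e-06). On the FPKM scale, which is per gene length, SHMT2 made up 85.6% ± 0.374 of the summed SHMT1 and SHMT2 level in shMTA1 and 78.0% ± 0.178 in Ctrl (SD, n = 3 each). These shares rest on the gene lengths behind FPKM, whose source is not given.

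The enzymes that oxidise folate-bound carbon divided the same way. MTHFD1 (ENSG00000100714.17, chromosome 14), the cytosolic trifunctional enzyme, was at 150.3, 158.5 and 160.7 CPM in shMTA1 and at 192, 205 and 197 CPM in Ctrl. No shMTA1 library reached the lowest Ctrl library, and the fall was 21.0% (log2 fold change -0.34 ± 0.042 SE, adjusted p = 7.65e-07). MTHFD2 (ENSG00000065911.13, chromosome 2), the mitochondrial dehydrogenase and cyclohydrolase, was at 83.2, 79.1 and 81.3 CPM in shMTA1 and at 65.3, 61.4 and 66.4 CPM in Ctrl. The shMTA1 libraries were all above, and the rise was 26.2% (0.34 ± 0.045, adjusted p = 2.53e-06). ALDH1L2 (ENSG00000136010.14, chromosome 12), which oxidises 10-formyltetrahydrofolate to carbon dioxide in mitochondria with the formation of NADPH, was at 34.2, 36.1 and 34.2 CPM in shMTA1 and at 29.6, 28.4 and 28.9 CPM in Ctrl. Again the groups did not overlap, with a rise of 20.1% (0.26 ± 0.050, adjusted p = 0.000157). MTHFD1L (ENSG00000120254.16, chromosome 6), the mitochondrial synthetase that releases formate, was at 60.7, 58.2 and 62.3 CPM in shMTA1 and at 56.7, 59.7 and 58.4 CPM in Ctrl. Its groups overlapped, and the difference was within the spread between replicates (0.05 ± 0.046, adjusted p = 0.34). With scaling by library size alone it was called higher (0.12, adjusted p = 0.032), and over all 19 alternatives its log2 fold change ran from 0.02 to 0.12, with adjusted p from 0.032 to 0.778. Pseudogenes of MTHFD1 and MTHFD2 in the table had at most 2 counts over all 6 libraries.

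**Figure D2:**
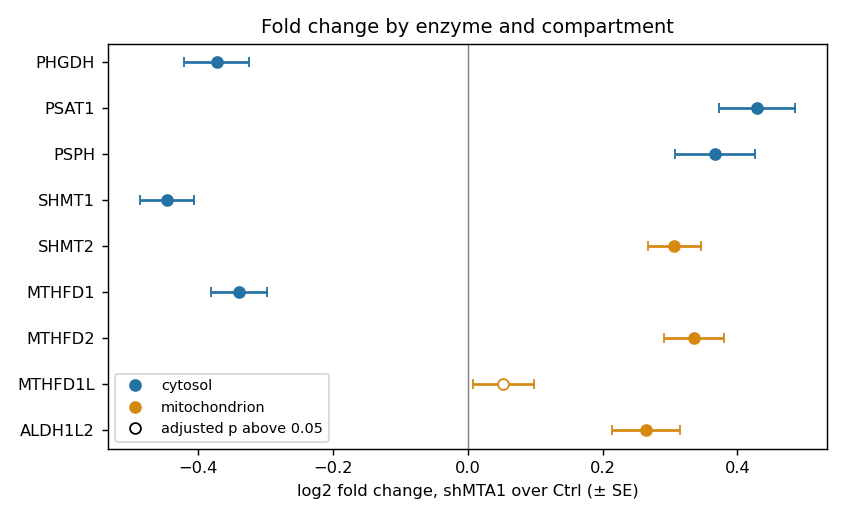
log2 fold change of shMTA1 over Ctrl for each of the 9 enzymes with its SE, from top to bottom in pathway order, coloured by compartment, with an open symbol where the adjusted p was above 0.05. PHGDH, SHMT1 and MTHFD1 lie between -0.45 and -0.34, and the called mitochondrial enzymes between 0.26 and 0.34.

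Gene length, taken from the ratio of counts to FPKM, moved with the fold change over all genes, with a median log2 fold change of -0.11 in the shortest of 4 equal classes and 0.08 in the longest. PHGDH, SHMT1 and MTHFD1, which were lower, were in the longest class, as were MTHFD2 and ALDH1L2, which were higher, while PSAT1, the gene with the largest rise of the 9, was in the shortest. With the length trend of each library removed, PHGDH stood at -0.46, PSAT1 at 0.52, PSPH at 0.42, SHMT1 at -0.52 and MTHFD1 at -0.43 on the log2 scale. These values were larger in absolute size than without this step. The mitochondrial enzymes had smaller values, SHMT2 0.28 against 0.31, MTHFD2 0.25 against 0.34, ALDH1L2 0.18 against 0.26 and MTHFD1L 0.02 against 0.05. The same 8 enzymes passed in the same direction in each of the 19 alternatives tried.

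The order in FPKM placed SHMT2 first and ALDH1L2 last in both groups. It rests on the gene lengths behind FPKM, whose source is not given and which may differ from the lengths of the messages. By CPM, without gene length, PHGDH was first (358 CPM in shMTA1, 463 CPM in Ctrl), above SHMT2 (321 CPM in shMTA1, 259 CPM in Ctrl). PSPH was last by CPM (25.2 CPM in shMTA1, 19.5 CPM in Ctrl). SHMT2 was at 63.2 ± 2.54 FPKM in shMTA1 and 48.8 ± 0.850 FPKM in Ctrl, and PHGDH followed at 35.2 ± 2.93 FPKM in shMTA1 and 43.5 ± 1.27 FPKM in Ctrl (SD, n = 3 each). PSAT1 came next in both groups, at 22.4 ± 1.90 FPKM in shMTA1 and 15.9 ± 0.854 FPKM in Ctrl. The middle of the order differed. In Ctrl, MTHFD1 (14.0 ± 0.582 FPKM) and SHMT1 (13.8 ± 0.132 FPKM) overlapped and both stood above MTHFD1L (10.3 ± 0.340 FPKM). In shMTA1, MTHFD1 (11.6 ± 0.461 FPKM) and MTHFD1L (11.2 ± 0.445 FPKM) overlapped and stood above SHMT1 (10.6 ± 0.131 FPKM). PSPH, MTHFD2 and ALDH1L2 came below, and all other neighbours in the order were apart in every library of a group. MTHFD2 was at 6.42 ± 0.161 FPKM in shMTA1 and 4.85 ± 0.165 FPKM in Ctrl, and ALDH1L2 at 3.32 ± 0.10 FPKM in shMTA1 and 2.64 ± 0.0379 FPKM in Ctrl. Summed over genes, the 4 mitochondrial enzymes reached 84.1 ± 2.85 FPKM in shMTA1 and 66.5 ± 0.953 FPKM in Ctrl, the 2 cytosolic folate enzymes 22.2 ± 0.589 FPKM in shMTA1 and 27.8 ± 0.714 FPKM in Ctrl, and the 3 serine synthesis enzymes 65.9 ± 5.20 FPKM in shMTA1 and 65.5 ± 2.08 FPKM in Ctrl. On this scale the summed serine synthesis level thus overlapped between the groups while its members moved apart.

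**Figure D3:**
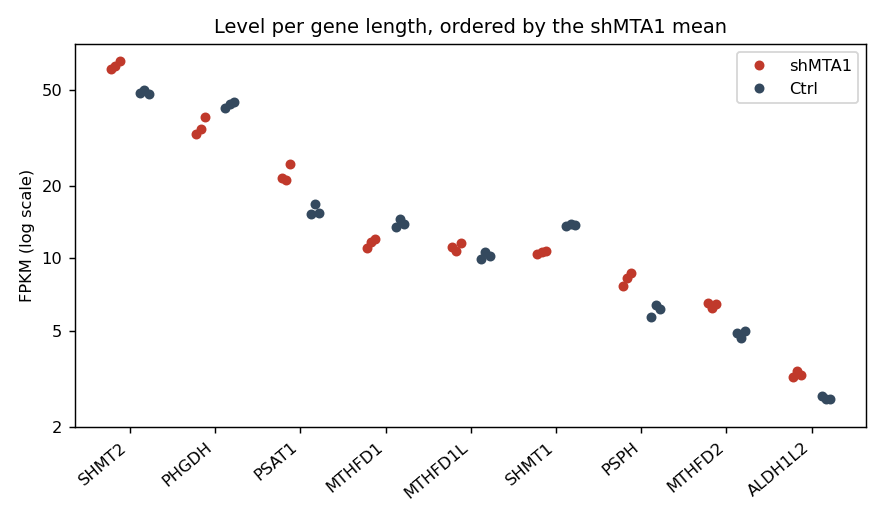
FPKM of each enzyme by library on a log axis, ordered by the shMTA1 mean, with shMTA1 on the left and Ctrl on the right of each gene. SHMT2 and PHGDH are the highest in both groups, and MTHFD1, MTHFD1L and SHMT1 lie between 9.94 and 14.6 FPKM.

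Ratios taken within a library do not depend on how libraries are scaled. Their absolute values rest on the gene lengths behind FPKM, whereas their log2 differences between the groups do not. The ratio of SHMT2 to SHMT1 in FPKM was 5.83, 5.87 and 6.17 in the shMTA1 libraries and 3.54, 3.57 and 3.50 in the Ctrl libraries, a log2 difference of 0.75 ± 0.027 SE. The ratio of MTHFD2 to MTHFD1 was 0.591, 0.533 and 0.540 in shMTA1 and 0.364, 0.319 and 0.359 in Ctrl (0.68 ± 0.076). Both ratios of a mitochondrial to a cytosolic enzyme were higher in every shMTA1 library than in any Ctrl library, which restates the opposite calls of their genes. The ratio of MTHFD1L to MTHFD1 was 1.01, 0.915 and 0.968 in shMTA1 and 0.737, 0.726 and 0.739 in Ctrl (0.39 ± 0.041), so its groups were apart although MTHFD1L itself did not pass. Within serine synthesis, the ratio of PHGDH to PSAT1 was 1.52, 1.63 and 1.56 in shMTA1 and 2.76, 2.60 and 2.88 in Ctrl (-0.80 ± 0.053), and that of PHGDH to PSPH was 4.25, 4.16 and 4.40 in shMTA1 and 7.39, 6.81 and 7.24 in Ctrl (-0.74 ± 0.042). Both ratios were lower in every shMTA1 library than in any Ctrl library. MTHFD2L, a second mitochondrial dehydrogenase of the same step, was lower (10.5 ± 0.848 CPM in shMTA1 and 12.6 ± 0.554 CPM in Ctrl, log2 fold change -0.26 ± 0.075, adjusted p = 0.00613), and the ratio of MTHFD2 to it was 6.67 ± 0.617 in shMTA1 and 4.40 ± 0.262 in Ctrl (SD, n = 3 each). ALDH1L1, the cytosolic counterpart of ALDH1L2, had 3 to 6 counts in shMTA1 and 4 to 9 in Ctrl and was not tested. For each of the 6 ratios compared, the exact 2-sided permutation p was 0.1, also after Benjamini-Hochberg adjustment, which is the smallest that this permutation test can give with 3 libraries against 3. Except for MTHFD1L to MTHFD1, the genes of each pair had moved in opposite directions without overlap. The separation of those ratios and their p were thus fixed by the calls of the single genes and add no further test.

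**Figure D4:**
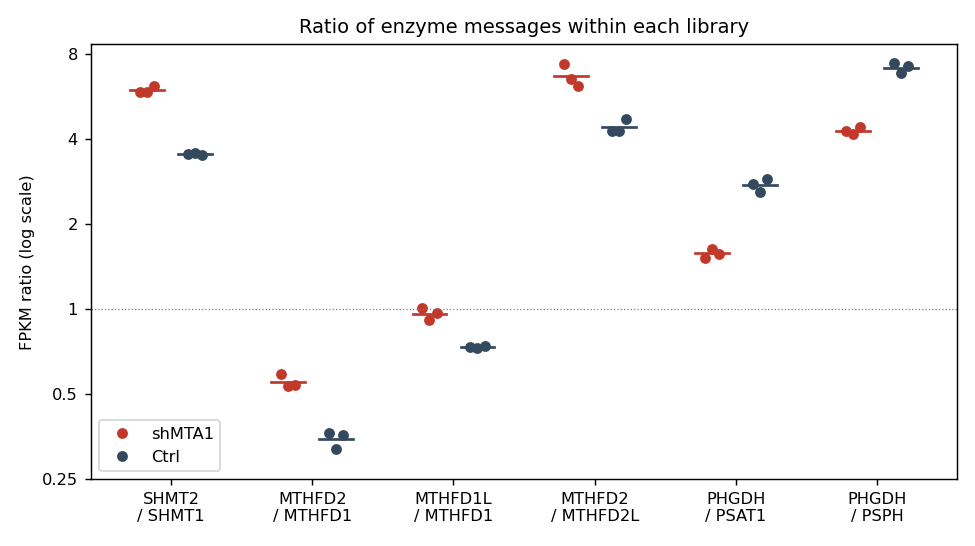
Ratio of the FPKM of enzyme pairs within each library on a log axis, with shMTA1 on the left and Ctrl on the right of each pair; points are libraries and lines are geometric means. In all 6 pairs the 3 shMTA1 points lie on 1 side of the 3 Ctrl points, above them for the 4 pairs led by a mitochondrial enzyme and below them for the 2 led by PHGDH.

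SHMT1, with the largest absolute log2 fold change of the 9 in this fit (0.45, against 0.43 for PSAT1), was compared with all other tested genes of 2 CPM or more by the correlation of log2 CPM over the 6 libraries. The genes most like it were GSN (Pearson r = 0.9999), an actin-severing protein, RPP25 (r = 0.9997), a subunit of ribonuclease P, and RPL13 (r = 0.9996), a ribosomal protein, as a description. With 2 groups that lie apart, 1844 of 11638 genes had an r above 0.95, so this likeness is not particular to these genes. PSAT1 was ahead of SHMT1 with scaling by library size only (0.50 for PSAT1 and -0.38 for SHMT1), on both FPKM scales and without shMTA1 replicate 1, shMTA1 replicate 2 or Ctrl replicate 2.

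Genes around the pathway moved with its parts in different ways. In the list of other folate genes, 13 of 14 tested members passed, beside 58.1% of all genes tested. Of the 14, 5 were higher and 8 lower, beside 29.5% and 28.6% of all genes tested. The median log2 fold change was -0.20 beside 0.002 over all genes tested. TYMS, thymidylate synthase, was at 213 ± 3.77 CPM in shMTA1 and 265 ± 7.13 CPM in Ctrl (-0.31 ± 0.039), and MTHFS, which salvages 5-formyltetrahydrofolate, fell by 0.29 ± 0.057 on the log2 scale. FTCD, a folate enzyme of histidine breakdown with 12 to 25 counts in shMTA1 and 35 to 57 in Ctrl, fell by 1.17 ± 0.27. Among those that rose, SLC19A1, the reduced folate carrier, was at 37.4 ± 2.78 CPM in shMTA1 and 21.7 ± 0.692 CPM in Ctrl (0.79 ± 0.058). SLC25A32, the mitochondrial folate carrier, did not pass (0.19, adjusted p = 0.0773) and was chosen after its value was seen.

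Genes that use or carry serine and glycine were mostly higher. Of 18 tested genes of serine and glycine use, 12 rose and 2 fell (median log2 fold change 0.44). Of all genes tested, 29.5% were called higher and 28.6% lower. SPTLC1, a subunit of serine palmitoyltransferase, was at 43.2 ± 0.752 CPM in shMTA1 and 24.5 ± 0.364 CPM in Ctrl (0.81 ± 0.049 SE). CTH, which makes cysteine from cystathionine, was at 13.2 ± 0.809 CPM in shMTA1 and 6.70 ± 0.411 CPM in Ctrl (0.98 ± 0.080), and SERINC1 (0.71 ± 0.057) and the phosphatidylserine synthase PTDSS1 (0.47 ± 0.037) rose too. The genes that fell, PIPOX (-0.78 ± 0.27) and the serine racemase SRR (-0.26 ± 0.090), lost their calls in some alternatives. PIPOX did so with DESeq2 (adjusted p = 0.0584) and without shMTA1 replicate 2 (0.09), shMTA1 replicate 3 (0.0748) or Ctrl replicate 3 (0.0585). SRR did so with library size only (0.078), DESeq2 (0.062) and both FPKM scales (0.084 and 0.0891), and without shMTA1 replicate 2 (0.0508), shMTA1 replicate 3 (0.0636) or Ctrl replicate 2 (0.0979). Of 10 transporters, 7 rose and 2 fell (median 0.42), beside the same shares of all genes tested. SLC1A5, a carrier of neutral amino acids, was at 401 ± 13.2 CPM in shMTA1 and 289 ± 14.9 CPM in Ctrl (0.47 ± 0.044), SLC38A2 at 363 ± 12.1 CPM in shMTA1 and 268 ± 1.92 CPM in Ctrl (0.44 ± 0.039) and the glycine transporter SLC6A9 at 6.20 ± 0.341 CPM in shMTA1 and 3.47 ± 0.285 CPM in Ctrl (0.84 ± 0.11). The sideroflexins, some of which carry serine into mitochondria, differed among themselves. SFXN3 was at 44.6 ± 2.17 CPM in shMTA1 and 27.4 ± 1.2 CPM in Ctrl (0.71 ± 0.054), whereas SFXN1 was at 44.9 ± 2.04 CPM in shMTA1 and 50.1 ± 2.52 CPM in Ctrl (-0.16 ± 0.051, adjusted p = 0.0118), a call that ended with scaling by library size only (adjusted p = 0.134), on both FPKM scales (0.175 and 0.179), without shMTA1 replicate 3 (0.0517) and without Ctrl replicate 1 (0.0627). SLC25A38, a mitochondrial glycine carrier, fell by 0.25 ± 0.050 on the log2 scale.

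Genes of the methionine cycle and methyl transfer and of purine and thymidylate synthesis were called in both directions. In the list of the methionine cycle and methyl transfer, 3 of 14 tested genes rose and 7 fell, the median being -0.08 (log2 fold change). AHCY, which clears S-adenosylhomocysteine, was at 298 ± 12.2 CPM in shMTA1 and 384 ± 6.66 CPM in Ctrl (-0.37 ± 0.041 SE), NNMT, a nicotinamide methyltransferase, at 411 ± 28.1 CPM in shMTA1 and 556 ± 13.0 CPM in Ctrl (-0.44 ± 0.046), and the methylthioadenosine phosphorylase MTAP at 26.6 ± 1.29 CPM in shMTA1 and 35.5 ± 0.962 CPM in Ctrl (-0.42 ± 0.053). MMAB, an enzyme of cobalamin metabolism, had the lowest value of the list (-0.79 ± 0.045), while MTRR, which reactivates methionine synthase (0.35 ± 0.080), and MRI1, of methionine salvage (0.40 ± 0.099), rose. Of 15 genes of purine and thymidylate synthesis, 5 rose and 5 fell (median -0.04), shares near those of all genes tested, of which 29.5% were higher and 28.6% lower. PFAS was at 24.5 ± 0.862 CPM in shMTA1 and 15.0 ± 0.397 CPM in Ctrl (0.71 ± 0.057) and GART, which uses 10-formyltetrahydrofolate, at 152 ± 10.3 CPM in shMTA1 and 123 ± 2.85 CPM in Ctrl (0.30 ± 0.047), while DUT, a dUTPase, was at 76.8 ± 1.75 CPM in shMTA1 and 124.6 ± 0.544 CPM in Ctrl (-0.70 ± 0.041). PRPS1, which makes the ribose precursor (0.21 ± 0.053), rose, and of the adenylosuccinate synthases ADSS2 rose (0.50 ± 0.051) and ADSS1 fell (-0.61 ± 0.050). ATIC, the other enzyme of the list that uses 10-formyltetrahydrofolate, chosen after its value was seen, fell (-0.23 ± 0.044), so the pair that uses this cofactor did not move together.

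Most genes of the amino acid response were higher, and the message of ATF4 was lower. Of 21 tested members of this list, 17 rose and 1 fell (median log2 fold change 0.49). STC2 was at 74.0 ± 2.58 CPM in shMTA1 and 21.4 ± 1.36 CPM in Ctrl (1.79 ± 0.054 SE), GDF15 at 20.2 ± 1.08 CPM in shMTA1 and 6.31 ± 0.414 CPM in Ctrl (1.68 ± 0.074) DDIT3, the stress factor CHOP, at 135 ± 3.05 CPM in shMTA1 and 57.8 ± 2.77 CPM in Ctrl (1.23 ± 0.045) and GPT2, an alanine aminotransferase, at 43.7 ± 1.39 CPM in shMTA1 and 20.1 ± 0.807 CPM in Ctrl (1.12 ± 0.053). ASNS, asparagine synthetase, chosen after its value was seen, was at 14.2 ± 0.474 CPM in shMTA1 and 9.69 ± 0.657 CPM in Ctrl (0.55 ± 0.072). ATF5, a transcription factor of this list, was the gene that fell (-0.56 ± 0.076). The rises of PSAT1, PSPH, SHMT2, MTHFD2 and ALDH1L2 lay in the direction of this list's median, and the falls of PHGDH, SHMT1 and MTHFD1 did not. In the list of regulators, 5 of 14 tested genes rose and 5 fell (median 0.003), shares near those of all genes tested. ATF4 was at 1309 ± 24.8 CPM in shMTA1 and 1488 ± 24.2 CPM in Ctrl (-0.19 ± 0.039, adjusted p = 0.000445), and CEBPB fell as well (-0.25 ± 0.045). ATF4 is known to be controlled largely at translation, which these data do not measure. MYC was at 256 ± 2.36 CPM in shMTA1 and 218 ± 2.80 CPM in Ctrl (0.23 ± 0.038), EIF2AK3, the kinase PERK, rose (0.52 ± 0.090), and the histone demethylase KDM4C (0.63 ± 0.067) and methyltransferase EHMT2 (0.18 ± 0.043), both known to act on serine pathway genes, rose as well. The lists describe counts beside 29.5% of all tested genes called higher and 28.6% called lower.

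**Figure D5:**
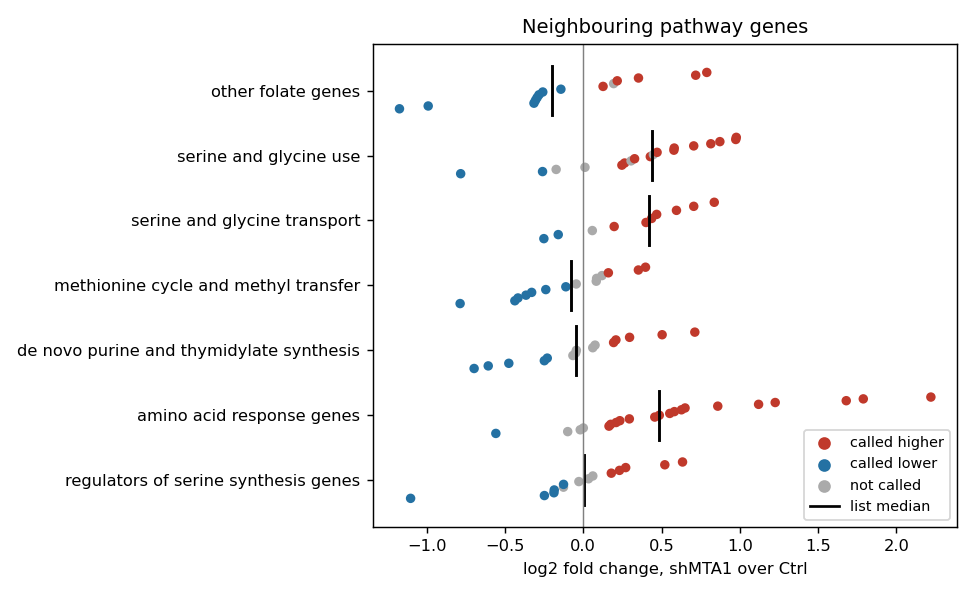
log2 fold change of shMTA1 over Ctrl of each tested gene of the 7 lists around the pathway, red where called higher, blue where called lower and grey where not called, with a black line at each list's median. The medians of serine and glycine use, transport and the amino acid response lie between 0.42 and 0.49, and the other 4 between -0.20 and 0.003.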

How the data were processed

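Total RNA of PC-3 cells was made into stranded libraries with a SMARTer kit and sequenced in pairs on a NovaSeq, per the labels' protocols. The authors deposited whole-number counts per gene without normalization, and FPKM values that the authors scaled for gene length and depth and rounded to 2 decimals. For the aligner, counting tool, strand setting, build and annotation, none of the sources used here gives a name. DESeq2 stands in the submitters' processing notes with no role. shMTA1 columns were matched to the MTA1 titles by name and NC columns to the Ctrl titles by elimination.

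Counts were fitted over all 15423 genes kept by filterByExpr (99.9% of counts) with TMM and the edgeR 4.0.16 quasi-likelihood test in R 4.3.3, group as the only term, Benjamini-Hochberg adjustment and a threshold of 0.05. The biological coefficient of variation was 4.45%. SEs come from the same fit. The fit was tested on simulated data first. Promoters came from a RefSeq table. The alternatives were other scalings and filters, DESeq2 1.42.0 and limma 3.58.1 (voom, and log2(FPKM + 0.1) or log2(FPKM + 1)). Others were a replicate block, a gene length offset, abundant and mitochondrially encoded genes left out, and each library left out. The ratio of ALDH1L2 to ALDH1L1 was left out, since ALDH1L1 failed the filter. The named genes were MTA1, the 9 enzymes, genes of the ratios and, per list, up to 4 called genes with the smallest p in the main direction and 2 in the other. Some of these genes are not reported here. The members and lists were chosen with earlier results of these data known.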

Additional observations from a re-analysis of the deposited data

How the results depend on the processing

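The 8 called enzymes passed in the same direction in all 19 alternatives. The count of all genes called ran from 7724 (DESeq2) to 9139 (replicate block), against 8954, and from 8145 to 8586 with a library left out. Of the calls, 4550 were higher and 4404 lower, but 5376 higher and 3574 lower with library size only, 5043 higher and 3345 lower on log2(FPKM + 0.1) and 5070 higher and 3335 lower on log2(FPKM + 1). The replicate numbers showed no clear pairing of the libraries. The correlations of deviations for numbers 1, 2 and 3 were 0.0666, -0.0207 and 0.0191, which cannot exclude pairing with 3 libraries per group. The block left 5 enzymes called higher and 3 lower.

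Counts over 1.5 times from the reported ones were all small. Other folate genes called lower were 5 on both FPKM scales against 8, and those called higher 3 to 6 with a library left out. Genes of serine and glycine use called lower were 1 with library size only, a floor of 1 CPM and both FPKM scales, 0 with DESeq2 and 0 to 2 with a library left out, against 2. Transporters called lower were 1 with library size only and both FPKM scales and 1 to 2 with a library left out, against 2. Amino acid response genes called lower were 2 with DESeq2 size factors, upper-quartile scaling, the 1 CPM floor, the replicate block, the length offset and both together, and 1 to 2 with a library left out, against 1. Regulators called lower were 3 on both FPKM scales and 3 to 5 with a library left out, against 5. The cause was not tested. The enzymes had 567 to 15674 counts per library. FTCD, a low gene, had 12 to 25 counts in shMTA1 and 35 to 57 in Ctrl, with an SE of 0.27, above that of any of the enzymes.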
